A study of Homo sapiens with 24 samples.

Results

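The insulin-like growth factor (IGF) binding proteins, encoded by IGFBP1, IGFBP2, IGFBP3, IGFBP4, IGFBP5, IGFBP6 and IGFBP7, and the CCN proteins encoded by CCN1, CCN2 and CCN3 were followed in hepatocellular carcinoma (HCC) cells exposed to transforming growth factor β1 (TGFβ), to a blocker of its receptor, or to both. The genes were found on the array through the transcript accession given for each probe: all 10 were present, on 11 of 58201 probes, among 31204 named genes. IGFBP7 had 2 probes and every other gene had 1; the probes of IGFBP2 and IGFBP3 were printed 10 times on each array.

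PLC/PRF/5 and SNU-449 are established human HCC lines with an epithelial-like and a mesenchymal-like expression profile, respectively. The cells of all groups were serum-starved overnight. Each line was then left as a control, or given 1 ng/mL recombinant human TGFβ1, 10 µM galunisertib (LY2157299, an inhibitor of the TGFβ type 1 receptor kinase), or TGFβ1 together with galunisertib, for 16 h. Independent cultures were run in triplicate, which gave 3 arrays in each of 8 groups and 24 one-colour arrays in all. Each arm of the comparison therefore rests on 1 cell line, 1 dose and 1 time point, and neither the proteins nor any other dose was measured on these arrays.

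The IGFBPs are secreted carriers that bind IGF1 and IGF2 and govern how much of each ligand reaches the IGF type 1 receptor; proteases such as the pappalysins release the ligand again. In liver, IGFBP1 is a classic hepatocyte product repressed by insulin, and IGFBP3 is the main carrier of IGFs in serum. The CCN proteins are matricellular proteins with an IGFBP-like module at their start: CCN1 (formerly CYR61) and CCN2 (formerly CTGF) are transcribed under the YAP/TAZ co-activators and TEAD factors, CCN2 is also a well-known TGFβ-induced gene of fibrosis, and CCN3 (formerly NOV) often opposes CCN2.

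Levels below are log2 of a probe's signal over the 75th percentile of its own array, so that 0 is the brightness of that percentile and 1 unit is a doubling. The floor of this scale, the median over arrays of the faintest signal told apart from background, lay at -4.13, and lower values were set to it. A gene was called when it differed by more than 2-fold at an unadjusted P below 0.001 by limma, and the p-values printed are Benjamini-Hochberg adjusted over all genes tested. Signals of different probes are not compared with each other.

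The 75th percentile ranged from 145 to 262 intensity units over the 24 arrays, and 41.6% to 49.6% of the probes were well above background; replicates of 1 group correlated at 0.976 to 0.997. Treatment was visible in known TGFβ targets. In SNU-449, SMAD7, an inhibitor of the TGFβ receptor, was higher by 0.65 with TGFβ (adjusted p = 0.0112, short of 2-fold) and fell by 1.90 with galunisertib alone (adjusted p = 0.000149). In PLC/PRF/5, SKIL, an inhibitor of SMAD signalling, rose by 1.63 (adjusted p = 8.55e-06) and PMEPA1, another, which was above background on no control array and so passed the filter through a treated group, was at least 6.02-fold higher with TGFβ (adjusted p = 0.00072). The 9 hepatocyte markers examined were all well above background on every PLC/PRF/5 control array, with a summed signal 725 to 1017 times the 75th percentile; 5 of the 9 were so in SNU-449, where the sum was 2.00 to 2.17 and ALB, APOB, HNF4A and TF were above background on no control array. Of the 8 stellate cell and fibroblast markers, 2 were well above background on all PLC/PRF/5 control arrays (summed signal 3.50 to 4.16) and 5 in SNU-449 (88.4 to 121). That sum, mostly COL1A1, moved with treatment in SNU-449: 193 to 209 with TGFβ, 16.7 to 23.9 with galunisertib and 36.5 to 70.2 with both, while DCN, LUM and PDGFRA stayed at the floor in the control and TGFβ groups. The faint hepatocyte sum of SNU-449 moved too, to 1.498 to 1.718 with TGFβ, 2.78 to 3.44 with galunisertib and 2.18 to 2.32 with both, as did the endothelial sum, from 1.15 to 1.25 in control cells to 0.721 to 0.797, 1.348 to 1.498 and 1.20 to 1.41, in the order of those groups. In PLC/PRF/5 the treated ranges of the hepatocyte sum lay within the control range. The stellate cell and fibroblast sum of that line left its control range, at 4.29 to 4.317 with TGFβ, 2.493 to 2.904 with galunisertib and 2.705 to 3.241 with both. Its endothelial sum went from 0.5003 to 0.5683 in control cells to 0.4135 to 0.4817, 0.4378 to 0.5287 and 0.3808 to 0.4549, in the same order. The part of these markers in the results below was not tested. Each culture was of 1 HCC line, so the lists describe genes expressed in that line and do not count other cell types. In cultures lysed whole, fewer cells expressing a gene and less of its RNA per cell cannot be told apart. Each slide carried 1 replicate of every group, always in the same place. The groups given TGFβ lay in row 2 and the others in row 1, so the row and TGFβ cannot be told apart. Each column held 1 line either with or without galunisertib, so the column cannot be told apart from the line or from galunisertib. Differences within each slide are given beside the main results.

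The 250 bases before the transcription start are shown for CCN2 and IGFBP3, the genes that moved in opposite directions in the 2 lines, and for IGFBP4, which in SNU-449 moved against both of them. They are RefSeq sequences of the GRCh38.p14 build, written 5′ to 3′ on the strand of the gene: CCN2 at chr6:131951373-131951622 (minus strand), IGFBP3 at chr7:45921273-45921522 (minus strand) and IGFBP4 at chr17:40443200-40443449 (plus strand). Capitals mark every match, on either strand, to 5 motifs: the SMAD box (CAGAC), the core TEAD site (GGAATG), the AP-1 site (TGACTCA), the Sp1 GC box (GGGCGG) and the TATA box (TATAAA).
CCN2: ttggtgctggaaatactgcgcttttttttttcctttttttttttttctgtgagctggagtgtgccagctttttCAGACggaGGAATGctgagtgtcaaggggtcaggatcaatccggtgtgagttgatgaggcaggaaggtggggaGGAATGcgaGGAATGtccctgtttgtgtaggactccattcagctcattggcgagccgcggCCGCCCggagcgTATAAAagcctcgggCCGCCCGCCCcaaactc
IGFBP3: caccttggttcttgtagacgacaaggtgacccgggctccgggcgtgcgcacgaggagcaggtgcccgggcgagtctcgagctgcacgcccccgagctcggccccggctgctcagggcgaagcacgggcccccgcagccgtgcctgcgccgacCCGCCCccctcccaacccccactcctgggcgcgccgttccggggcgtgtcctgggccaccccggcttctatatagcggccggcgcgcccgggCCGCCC
IGFBP4: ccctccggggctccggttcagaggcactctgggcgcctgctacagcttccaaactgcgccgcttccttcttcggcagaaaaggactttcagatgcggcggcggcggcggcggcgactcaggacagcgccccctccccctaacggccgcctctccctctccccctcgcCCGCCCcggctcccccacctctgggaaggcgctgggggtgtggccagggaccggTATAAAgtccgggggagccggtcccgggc
Counting the last base shown as -1, CCN2 held a SMAD box at -177 to -173, TEAD sites at -169 to -164, -104 to -99 and -95 to -90, a TATA box at -32 to -27 and 3 GC boxes on the opposite strand, of which the last 2 overlap. IGFBP3 held GC boxes at -98 to -93 and at -6 to -1 and no match to the other motifs. IGFBP4 held a GC box at -83 to -78 and a TATA box at -29 to -24. Among the 35116 promoters of this length in the table, 38% held a SMAD box, 11.9% a TEAD site, 4.2% an AP-1 site, 42.6% a GC box and 3763 of them a TATA box; 29 promoters (0.0826%) held 3 or more TEAD sites, as CCN2 did. IGFBP2 (3 promoters), IGFBP5 and IGFBP6 were the other genes with an entry: IGFBP5 and IGFBP6 each held 1 TEAD site and IGFBP2 held 4 SMAD boxes over its 3 promoters. CCN1, CCN3, IGFBP1 and IGFBP7 had none in the table. A match is a description of the letters and not a measured binding site.

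The untreated lines expressed different sets of carriers. PLC/PRF/5 held far more IGFBP1, whereas SNU-449 held IGFBP4, IGFBP5, IGFBP6 and CCN3, which were near or at the floor in PLC/PRF/5, and more IGFBP7. Of the 10 genes tested, 5 were called higher and 1 lower in SNU-449, against 34.3% of all 17902 genes called in this comparison; the median difference was 1.34 for the 10 genes and -0.06 for all genes. Of those, 4 (IGFBP4, IGFBP5, IGFBP6 and CCN3) passed the filter on faint signals through SNU-449 alone, so that they could only be tested if they differed, and the counts support nothing beyond the genes themselves.

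**Figure D1:**
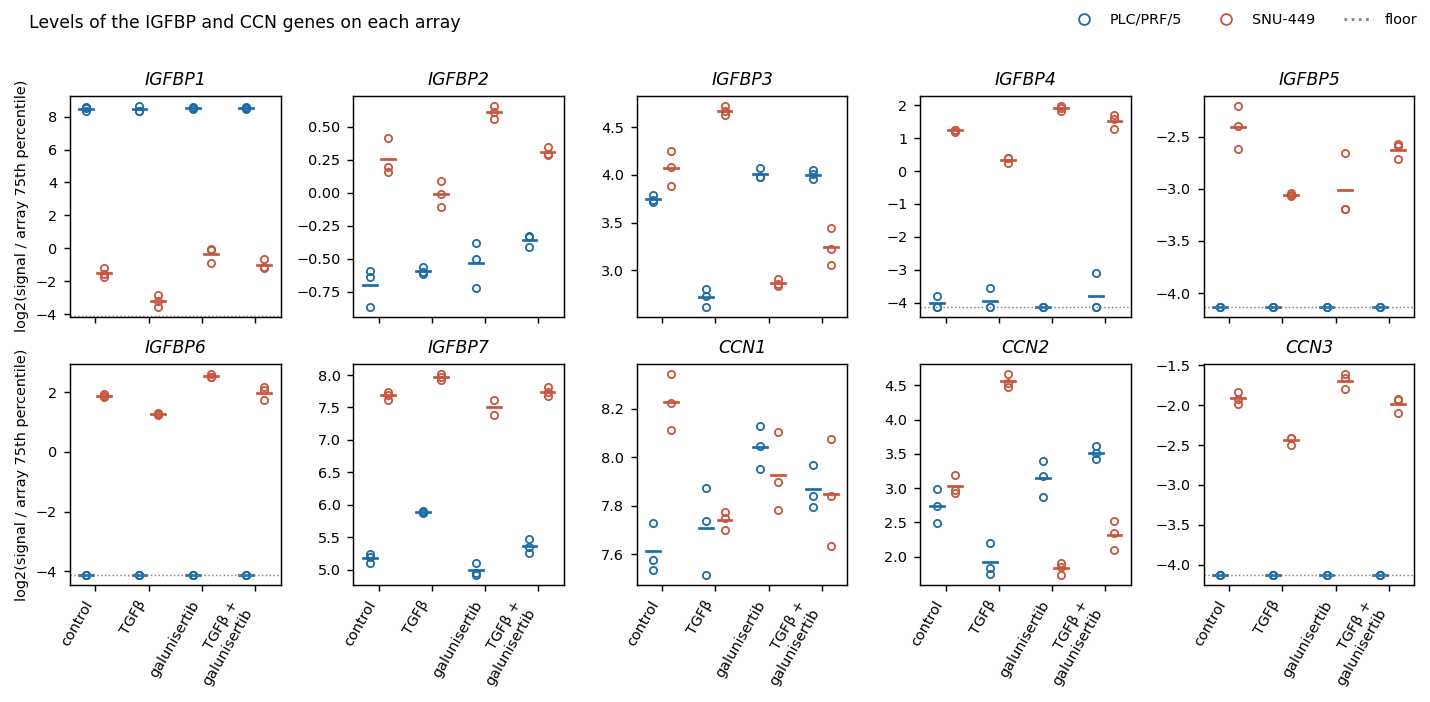
Level of each gene on each array (y axis, log2 of signal over the array's 75th percentile; x axis, the 4 conditions), with PLC/PRF/5 in blue, SNU-449 in red, circles for arrays, bars for the mean and a dotted line for the floor where it is in range. IGFBP1 lies near 8.5 in all PLC/PRF/5 groups and below 0 in all SNU-449 groups, while IGFBP5, IGFBP6 and CCN3 lie on the floor on all 12 PLC/PRF/5 arrays.

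IGFBP1 read 8.58, 8.53 and 8.35 on the PLC/PRF/5 control arrays and -1.21, -1.74 and -1.53 on those of SNU-449. The groups did not come near each other, and the difference of -9.98 (SE 0.211, adjusted p = 4.21e-19) made IGFBP1 1010.4-fold lower in SNU-449, with -9.79, -10.27 and -9.88 within the 3 slides. Yet IGFBP1 was well above background on every SNU-449 array, which allowed its response to be followed in both lines.

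IGFBP6, a carrier that prefers IGF2, read 1.94, 1.82 and 1.88 in SNU-449 and was at the floor on all 12 PLC/PRF/5 arrays, a difference of at least 55.5-fold (adjusted p = 2.37e-22). IGFBP4, which inhibits IGF action and is the main substrate of the protease PAPPA, read 1.19, 1.26 and 1.26 in SNU-449 and was at least 35.5-fold higher there (adjusted p = 1.19e-14). It was well above background on 2 of 12 PLC/PRF/5 arrays only, 1 with TGFβ (-3.57) and 1 with both agents (-3.11). CCN3 (-1.83, -1.92 and -1.98) and the matrix-bound carrier IGFBP5 (-2.40, -2.20 and -2.62) were faint in SNU-449 and at the floor in PLC/PRF/5, so their differences were at least 4.01-fold (adjusted p = 7.9e-17) and at least 2.84-fold (adjusted p = 4.47e-11) on this scale. Under another background correction (normexp) they were smaller and not called, at 0.81 for CCN3 and 0.75 for IGFBP5 on the log2 scale. IGFBP5 was also not called with a floor at 200% of the one used (0.73). IGFBP6 and IGFBP4 stayed called in all 20 other settings. Their log2 differences of 6.01 and 5.26 went as low as 3.52 and 2.93 there, so the folds given for them also hold on this scale only.

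IGFBP7, a low-affinity IGF binder also known as IGFBP-rP1, was bright in both lines. Its brighter probe read 5.10, 5.19 and 5.25 in PLC/PRF/5 and 7.69, 7.75 and 7.62 in SNU-449, which was 5.68-fold higher (difference 2.51, SE 0.0792, adjusted p = 1.36e-15), and its other probe differed by 3.07 (adjusted p = 8.55e-18). The remaining genes lay closer together. IGFBP2, abundant in fetal liver, read -0.86, -0.64 and -0.59 in PLC/PRF/5 and 0.19, 0.16 and 0.42 in SNU-449; its difference of 0.96 (adjusted p = 1.63e-08) was 1.94-fold and thus just short of a call. CCN1 (0.61, adjusted p = 8.94e-05) and IGFBP3 (0.33, adjusted p = 0.00454) were higher in SNU-449 by less than 2-fold, and CCN2 overlapped between the lines (0.29, adjusted p = 0.0959).

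With TGFβ, SNU-449 cells held more CCN2 and less IGFBP1, and most of the remaining carriers were lower by less than 2-fold. Of the 10 genes tested, 1 was called higher and 1 lower, where 2.33% of 16101 genes were called; an adjusted p below 0.05 was reached by 8 of them and by 10.5% of all genes. The median difference was -0.51 for the 10 genes and 0.02 over all genes.

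CCN2 read 2.97, 2.93 and 3.19 in SNU-449 control cells and 4.66, 4.53 and 4.47 with TGFβ. All TGFβ arrays lay above all control arrays, and the rise was 2.88-fold (difference 1.53, SE 0.121, adjusted p = 3.78e-05), with 1.69, 1.61 and 1.28 within the slides. IGFBP1 read -1.21, -1.74 and -1.53 in control cells and -2.81, -3.55 and -3.19 with TGFβ. It fell 3.23-fold without overlap (difference -1.69, SE 0.272, adjusted p = 0.00301; -1.60, -1.81 and -1.66 within the slides), from a level already far below that of PLC/PRF/5. The TGFβ arrays came close to the floor, and under normexp the difference was -0.78 and not called.

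IGFBP3, the main serum carrier, was higher with TGFβ by 0.60 (adjusted p = 0.00866) and thus moved the same way as CCN2. Lower with TGFβ by less than 2-fold were IGFBP4 (-0.90, adjusted p = 0.000678), IGFBP5 (-0.65, adjusted p = 0.022), IGFBP6 (-0.61, adjusted p = 0.00486), CCN3 (-0.53, adjusted p = 0.00333) and CCN1 (-0.49, adjusted p = 0.0348). For IGFBP4 the arrays read 1.19, 1.26 and 1.26 in control cells and 0.40, 0.24 and 0.39 with TGFβ, and for IGFBP6 they read 1.94, 1.82 and 1.88 against 1.22, 1.28 and 1.31. IGFBP2 (-0.27, adjusted p = 0.0953) and IGFBP7 (0.28, adjusted p = 0.0775) missed the adjusted threshold. For IGFBP7 the other probe gave 0.37 (adjusted p = 0.0265).

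The same treatment of PLC/PRF/5 went with less IGFBP3 and less CCN2 and with more IGFBP7. Of the 6 genes bright enough to test, 1 was called, IGFBP3, where 1.1% of 16684 genes were called, and 3 reached an adjusted p below 0.05, as 13.5% of all genes did. IGFBP4, IGFBP5, IGFBP6 and CCN3 were not tested in this line.

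IGFBP3 read 3.79, 3.72 and 3.73 in PLC/PRF/5 control cells and 2.73, 2.61 and 2.80 with TGFβ. It fell 2.05-fold with no overlap (difference -1.03, SE 0.0712, adjusted p = 1.34e-05; -1.06, -1.11 and -0.93 within the slides), a size close to the 2-fold threshold, and without TGFβ replicate 2 the difference was -0.98 and the call was lost. CCN2 read 2.74, 2.50 and 2.99 in control cells and 1.84, 2.20 and 1.74 with TGFβ, lower by 0.82 on average (adjusted p = 0.00908, 1.76-fold); the groups did not overlap, but the difference was -0.30 within slide 2 against -0.90 and -1.24 within the others.

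IGFBP7 read 5.10, 5.19 and 5.25 in PLC/PRF/5 control cells and 5.90, 5.89 and 5.87 with TGFβ. The groups stood apart and the difference of 0.70 (SE 0.0811, adjusted p = 0.000372) was matched by 0.71 (adjusted p = 0.000496) on the other probe, both short of 2-fold. CCN1 (0.10, adjusted p = 0.601), IGFBP2 (0.11, adjusted p = 0.542) and IGFBP1 (-0.03, adjusted p = 0.903) differed by 0.11 or less; IGFBP1 read 8.66, 8.36 and 8.36 with TGFβ.

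**Figure D2:**
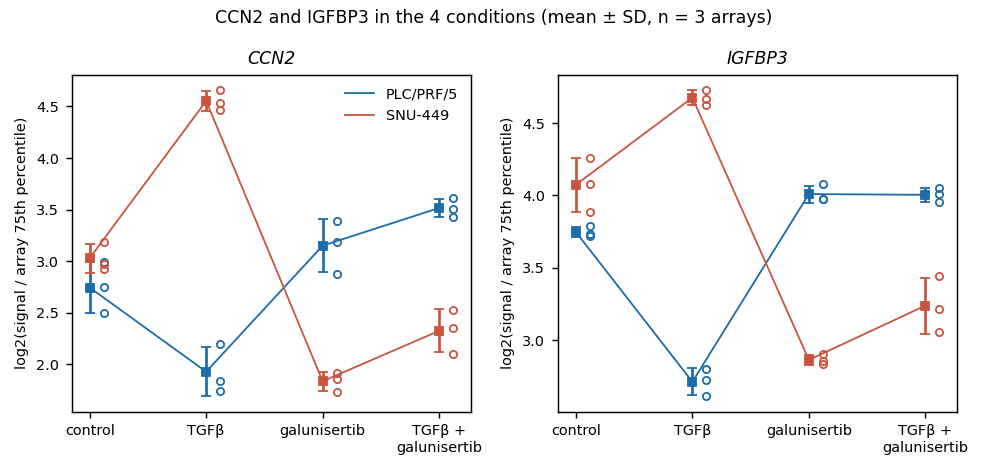
CCN2 (left) and IGFBP3 (right) in the 4 conditions (x axis) of PLC/PRF/5 (blue) and SNU-449 (red), as log2 of signal over the array's 75th percentile (y axis), with squares and bars for mean ± SD of 3 arrays and circles for the arrays. With TGFβ both genes lie above the control in SNU-449 (CCN2 4.55 against 3.03) and below it in PLC/PRF/5 (1.93 against 2.74), and with galunisertib the lines change places.

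The response to TGFβ of CCN2, IGFBP3 and IGFBP1 differed between the lines. Tested as an interaction over all 24 arrays, 3 of the 10 genes were called, where 2.29% of all genes were: the TGFβ effect was larger in SNU-449 by 2.34 for CCN2 (SE 0.210, adjusted p = 3.93e-07; 2.60, 1.91 and 2.52 within the slides) and by 1.64 for IGFBP3 (SE 0.133, adjusted p = 1.03e-07; 1.53, 1.89 and 1.48), and it differed by -1.66 for IGFBP1 (SE 0.299, adjusted p = 0.00104). The IGFBP1 value rests on SNU-449 arrays close to the floor and was -0.82 and not called under normexp. CCN1 (-0.58, adjusted p = 0.0293) and IGFBP7 (-0.42, adjusted p = 0.0232; -0.34, adjusted p = 0.0743, on its other probe) differed by less than 2-fold, and IGFBP2 by -0.37 (adjusted p = 0.0892). For IGFBP4, IGFBP5, IGFBP6 and CCN3 this contrast rests on PLC/PRF/5 values at or near the floor and is not read as a difference in response.

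Galunisertib alone asked what changes when the receptor is blocked without added TGFβ. In SNU-449 it lowered CCN2 and IGFBP3, while IGFBP1, IGFBP4, IGFBP6 and IGFBP2 were higher by amounts that were not called. Of the 10 genes, 2 were called, both lower, where 1.14% of all genes were called, and 7 reached an adjusted p below 0.05, as 7.43% of all genes did. The median difference was 0.02 for the 10 genes and 0.09 for all.

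CCN2 read 1.73, 1.86 and 1.91 with galunisertib in SNU-449, below all control arrays (2.93 to 3.19), and fell 2.29-fold (SE of the log2 difference 0.121, adjusted p = 0.000567; -1.24, -1.07 and -1.28 within the slides). IGFBP3 read 2.90, 2.84 and 2.85, below 4.26, 3.89 and 4.08 in control cells, and fell 2.31-fold (difference -1.21, SE 0.117, adjusted p = 0.000523; -1.35, -1.05 and -1.23). IGFBP1 read -0.03, -0.10 and -0.89, above its control arrays by 1.15 (2.23-fold, unadjusted p = 0.00166 by limma, adjusted p = 0.0321), which exceeded the fold threshold and missed that on P. It was called in the fit over all 24 arrays (1.15) and without galunisertib replicate 3 (1.43).

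IGFBP4 was higher with galunisertib in SNU-449 by 0.68 (adjusted p = 0.00702), IGFBP6 by 0.66 (adjusted p = 0.0063) and IGFBP2 by 0.35 (adjusted p = 0.0434), each with TGFβ on the other side of the control. IGFBP5 did not follow them: it was lower by 0.61 (adjusted p = 0.0397), as it was with TGFβ, with -0.04 within slide 3 and -0.79 or lower within the other slides. CCN1 (-0.30, adjusted p = 0.174), CCN3 (0.22, adjusted p = 0.151) and IGFBP7 (-0.19, adjusted p = 0.277, with 2 galunisertib arrays because the spot of the third was flagged) did not reach the adjusted threshold. The TGFβ and galunisertib comparisons share the same 3 control arrays, so the opposite signs of IGFBP1, IGFBP3, IGFBP4, IGFBP6 and CCN2 in them are not independent of each other.

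Galunisertib alone led to no call by limma among the 6 genes in PLC/PRF/5, where 0.342% of all genes were called. Of the 6, 4 had an unadjusted p below 0.05 by limma. A 2-sample test with pooled variance, without the random variance model named in the study's methods, called none either. That test called fewer genes than limma in every comparison where it was run, so its lack of calls is not further evidence. CCN1 was higher by 0.43 (adjusted p = 0.0399; 7.95, 8.04 and 8.13 against 7.57, 7.54 and 7.73). IGFBP3 was higher by 0.26 (adjusted p = 0.0596) and CCN2 by 0.41 with overlapping arrays (adjusted p = 0.17), while IGFBP2 (0.17, adjusted p = 0.351), IGFBP7 (-0.19, adjusted p = 0.191) and IGFBP1 (0.03, adjusted p = 0.896) differed less. The galunisertib effect itself differed between the lines for CCN2 (-1.60, SE 0.210, adjusted p = 0.000107) and IGFBP3 (-1.47, SE 0.133, adjusted p = 1.59e-06), the 2 of 10 genes called where 1.54% of all genes were. IGFBP1 (1.12, adjusted p = 0.0304; called without SNU-449 control replicate 1, at 1.27, or galunisertib replicate 3, at 1.40) and CCN1 (-0.73, adjusted p = 0.00998) were not called, and IGFBP2 (0.19, adjusted p = 0.483) and IGFBP7 (0.00, adjusted p = 0.994) missed the adjusted threshold too.

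**Figure D3:**
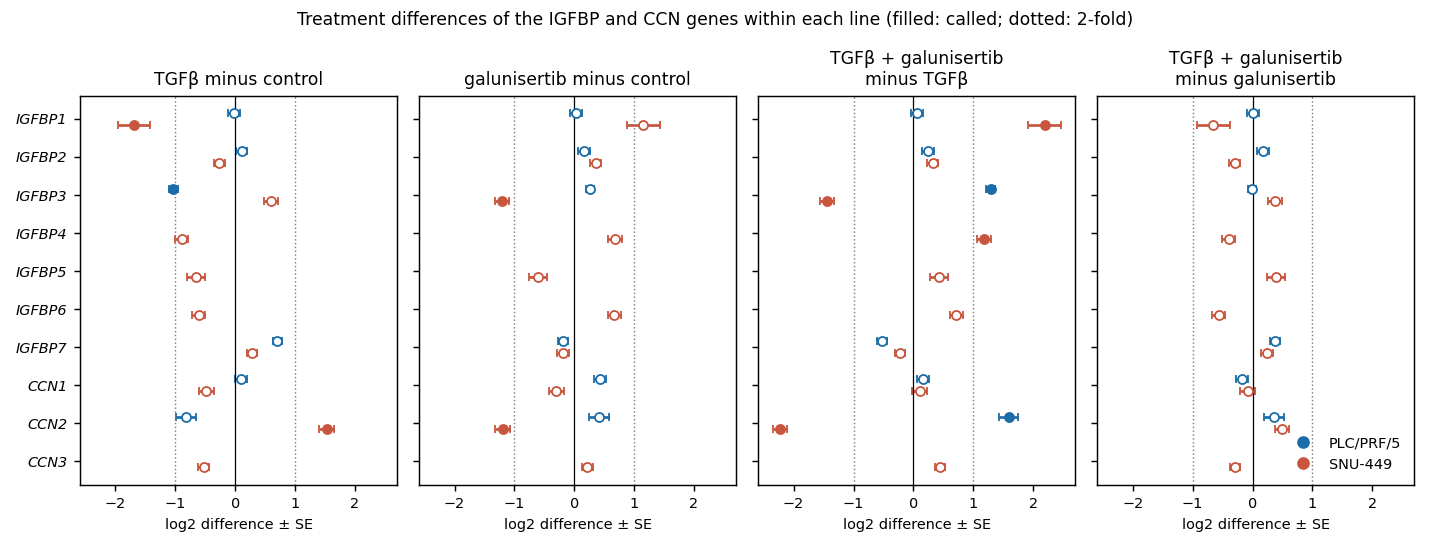
Log2 difference ± SE (x axis) of each gene (y axis) for 4 treatment comparisons within PLC/PRF/5 (blue) and SNU-449 (red); filled symbols are called genes, dotted lines mark 2-fold, and genes too faint in PLC/PRF/5 have a red symbol only. CCN2 and IGFBP3 lie on opposite sides of 0 in the 2 lines in the first 3 comparisons, and no symbol is filled when TGFβ is added to galunisertib.

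Galunisertib given with TGFβ, compared with TGFβ alone, moved more of these genes past the threshold than either agent did against control. The same held over all genes. In SNU-449, 614 genes were called in this comparison, against 375 for TGFβ and 184 for galunisertib alone, and in PLC/PRF/5 the numbers were 516, 184 and 57. In SNU-449, CCN2 and IGFBP3 fell while IGFBP1 and IGFBP4 rose. These were 4 of 10 genes called, where 3.81% of all genes were, and 7 had an adjusted p below 0.05, where 17.1% of all genes did; the median difference was 0.38 against 0.01 over all genes.

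CCN2 read 2.52, 2.10 and 2.35 in SNU-449 cells given both agents, against 4.66, 4.53 and 4.47 with TGFβ alone. It fell 4.69-fold with a wide gap between the groups (difference -2.23, adjusted p = 1.88e-06; -2.14, -2.43 and -2.12 within the slides). IGFBP3 read 3.44, 3.22 and 3.06 against 4.73, 4.67 and 4.63, and fell 2.71-fold (difference -1.44, adjusted p = 2.6e-05; -1.29, -1.45 and -1.57). Both genes thus ended below their levels in control cells.

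IGFBP1 read -1.14, -1.21 and -0.63 with both agents against -2.81, -3.55 and -3.19 with TGFβ, and rose 4.56-fold (difference 2.19, adjusted p = 0.000365; 1.66, 2.35 and 2.56 within the slides). IGFBP4 read 1.27, 1.59 and 1.71 against 0.40, 0.24 and 0.39, and rose 2.27-fold (difference 1.18, adjusted p = 6.89e-05; 0.87, 1.35 and 1.32). Neither gene overlapped between the groups. IGFBP6 (0.72, adjusted p = 0.00125), CCN3 (0.45, adjusted p = 0.00541) and IGFBP2 (0.32, adjusted p = 0.0343) were higher by less than 2-fold. IGFBP5 (0.43, adjusted p = 0.0802), IGFBP7 (-0.23, adjusted p = 0.117) and CCN1 (0.11, adjusted p = 0.635) missed the adjusted threshold, and the arrays of CCN1 overlapped.

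The same comparison in PLC/PRF/5 had the opposite signs for CCN2 and IGFBP3: both rose, and they were the 2 of 6 genes called, where 3.09% of all genes were, while 3 had an adjusted p below 0.05, where 39.1% of all genes did. CCN2 read 3.61, 3.51 and 3.43 with both agents against 1.84, 2.20 and 1.74 with TGFβ, a 3.01-fold rise (difference 1.59, SE 0.165, adjusted p = 6.2e-05; 1.77, 1.31 and 1.68 within the slides). IGFBP3 read 4.05, 4.01 and 3.95 against 2.73, 2.61 and 2.80, a 2.45-fold rise (difference 1.29, SE 0.0712, adjusted p = 1.19e-06; 1.32, 1.40 and 1.15). In both genes all arrays with both agents lay above all arrays of the control group as well.

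IGFBP7 in PLC/PRF/5 was lower with both agents than with TGFβ alone by 0.52 (adjusted p = 0.000658; 5.47, 5.26 and 5.35 against 5.90, 5.89 and 5.87), and the other probe gave -0.74 (adjusted p = 0.000122). IGFBP2 (0.24, adjusted p = 0.084), CCN1 (0.16, adjusted p = 0.254) and IGFBP1 (0.06, adjusted p = 0.665) missed the adjusted threshold. IGFBP1 stayed within 8.35 and 8.66 on all 12 arrays of this line.

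TGFβ added to cells under galunisertib shows what of the response remained. In SNU-449, 5 of 8 known TGFβ response genes were still called higher (median 1.39, against 1.16 for TGFβ without galunisertib). In SNU-449 none of the 10 genes was called by limma, where 0.702% of all genes were, although 9 had an unadjusted p below 0.05. The 2-sample test with pooled variance also called none, which for the reason given above is not further evidence. CCN2 was higher by 0.49 (adjusted p = 0.08; 2.52, 2.10 and 2.35 against 1.73, 1.86 and 1.91) with no overlap, and IGFBP6 was lower by 0.56 (adjusted p = 0.0304; 1.73, 2.06 and 2.16 against 2.51, 2.52 and 2.61), the 1 gene with an adjusted p below 0.05. IGFBP1 differed by -0.65 (adjusted p = 0.259) with overlapping arrays, IGFBP4 by -0.40 (adjusted p = 0.118), IGFBP5 by 0.39 (adjusted p = 0.232) and IGFBP3 by 0.37 (adjusted p = 0.148). IGFBP2, CCN3, IGFBP7 and CCN1 differed by 0.30 or less.

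Under galunisertib, none of the 6 genes was called by limma in PLC/PRF/5, where 0.294% of all genes were, with 2 at an unadjusted p below 0.05. None was called by the 2-sample test with pooled variance, which again is not further evidence. IGFBP3 read 4.08, 3.97 and 3.98 without and 4.05, 4.01 and 3.95 with TGFβ, a difference of -0.01 (adjusted p = 0.975). CCN2 was higher by 0.37 (adjusted p = 0.168), and IGFBP7 by 0.37 (adjusted p = 0.0255) on its brighter probe but by 0.04 (adjusted p = 0.811) on the other. CCN1 (-0.17, adjusted p = 0.286), IGFBP2 (0.18, adjusted p = 0.259) and IGFBP1 (0.01, adjusted p = 0.969) missed the adjusted threshold.

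Whether galunisertib altered the TGFβ effect was tested as the effect with galunisertib minus the effect without it. In SNU-449, 2 of 10 genes were called, where 1.36% of all genes were: CCN2 (-1.04, SE 0.172, adjusted p = 0.0117; -0.90, -1.36 and -0.84 within the slides) and IGFBP5 (1.04, SE 0.215, adjusted p = 0.0349; 1.27, 1.35 and 0.50). For CCN2 the TGFβ difference went from 1.53 to 0.49, and leaving out control replicate 2, TGFβ replicate 1, galunisertib replicate 3 or combined replicate 2 ended the call. For IGFBP5 it went from -0.65 to 0.39; its signals lay close to the floor (-3.20 to -2.20 over the 12 arrays), and the call held in 8 of 26 other settings. IGFBP1 (1.04, adjusted p = 0.204), IGFBP4 (0.50, adjusted p = 0.153), CCN1 (0.41, adjusted p = 0.273) and IGFBP3 (-0.23, adjusted p = 0.506) were not called, and IGFBP2, IGFBP6, IGFBP7 and CCN3 had values of at most 0.23 in either direction.

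For the same test in PLC/PRF/5, 2 of 6 genes were called, where 1.19% of all genes were. For IGFBP3 (1.03, SE 0.101, adjusted p = 0.000421; 1.03, 1.15 and 0.91 within the slides) the TGFβ difference went from -1.03 to -0.01 (without TGFβ replicate 2 the value was 0.98 and not called), and for CCN2 (1.18, SE 0.234, adjusted p = 0.0148; 1.33, 0.93 and 1.28) from -0.82 to 0.37. With the slide as a block the CCN2 value stayed 1.18 (adjusted p = 0.0284) and lost its call at an unadjusted p of 0.00104 by limma. The call held in 16 of 26 other settings, and it ended (values 1.06 to 1.20) without control replicate 1 or 3, TGFβ replicate 1 or 3, galunisertib replicate 1, or combined replicate 1 or 2. IGFBP7 had -0.33 (adjusted p = 0.0944) on one probe and -0.67 (adjusted p = 0.0108) on the other, CCN1 -0.27 (adjusted p = 0.268), IGFBP2 0.07 and IGFBP1 0.03.

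Set in order over all 8 groups, CCN2 was highest in SNU-449 with TGFβ (4.55 ± 0.10, SD, n = 3) and next in PLC/PRF/5 with both agents (3.51 ± 0.09), and neither of these groups overlapped with its neighbours. From PLC/PRF/5 with galunisertib (3.15 ± 0.26) downwards, through both controls, SNU-449 with both agents and PLC/PRF/5 with TGFβ (1.93 ± 0.24) to SNU-449 with galunisertib (1.83 ± 0.09), each group overlapped with the next. IGFBP3 ran from SNU-449 with TGFβ (4.67 ± 0.05) to PLC/PRF/5 with TGFβ (2.71 ± 0.09); the 3 groups below the top, SNU-449 control, PLC/PRF/5 with galunisertib and PLC/PRF/5 with both, overlapped in turn, and the rest stood apart. The same agent thus marked the highest and the lowest IGFBP3 levels of the series. IGFBP7 was higher in every SNU-449 group (7.50 ± 0.16 to 7.97 ± 0.04) than in any PLC/PRF/5 group (4.99 ± 0.11 to 5.88 ± 0.02), and TGFβ was the highest group of each line. CCN1 ranged from 7.61 ± 0.10 to 8.23 ± 0.12 with all neighbouring groups overlapping.

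The other genes of the IGF axis were examined from a list of 9 ligands, receptors and adaptors. Between the untreated lines, 34.3% of all genes were called, which applies here and to the lists that follow. In untreated cells 7 could be tested and 4 were called: the ligand IGF2, above background on no PLC/PRF/5 control array, was at least 74.8-fold higher in SNU-449 (adjusted p = 1.02e-17) and the adaptor IRS1 higher by 1.81, while the scavenging receptor IGF2R (-1.70) and the insulin receptor INSR (-2.26) were lower. None of 6 tested genes of the list was called by limma in the 4 treatment comparisons of SNU-449, with 1 to 4 genes at an unadjusted p below 0.05. The ligand IGF2 in PLC/PRF/5 was well above background on no control array and at least 4.81-fold higher with TGFβ (adjusted p = 3.58e-05), and it was lower by 1.80 when galunisertib was added (adjusted p = 5.42e-05). It passed the filter through the TGFβ group alone, where it was high, so these p-values support nothing further; no other gene of the 7 was called for either. The median of the 7 was 0.30 with TGFβ against -0.04 over all genes.

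IGFBP proteases and their inhibitors made a second list of 8 genes. PAPPA, the IGFBP4 protease, was higher in SNU-449 control cells by 2.05 and MMP7 at least 17.8-fold (7 tested, no gene lower); with TGFβ, STC2, an inhibitor of PAPPA, fell by 1.40 in PLC/PRF/5 (adjusted p = 0.000101; 5 tested), and none of the 7 genes tested with TGFβ in SNU-449 was called by limma (2 at an unadjusted p below 0.05). Of the 3 other CCN genes, CCN5 was at least 44.97-fold higher in SNU-449 control cells. For treatments CCN5 was tested within SNU-449 only and was called for none. MMP7 and CCN5 passed the filter through SNU-449 alone, so that between the lines they could only be tested if they differed.

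CCN1 and CCN2 are YAP/TAZ and TEAD targets, and other genes of that pathway were followed beside them. Of 10 pathway components, the co-activator gene WWTR1 (TAZ) and TEAD2 were higher in SNU-449 control cells by 2.32 and 1.71 and the kinase gene LATS1 was lower by 1.10. None of the 10 was called by limma with TGFβ in SNU-449 (5 had an unadjusted p below 0.05), while VGLL3, a TEAD cofactor, fell by 1.52 in PLC/PRF/5 with TGFβ (adjusted p = 0.000457) and by 1.04 when TGFβ was added to galunisertib (adjusted p = 0.0152). Of 14 target genes besides the CCN genes, 13 could be tested between the untreated lines: 8 were called higher in SNU-449, among them FJX1 (5.66), the receptor kinase AXL (4.17), NT5E (4.05) and ANKRD1 (3.31), and 2 lower, F3 (-1.08) and FOXF2 (at least 13.9-fold). FOXF2 passed the filter through PLC/PRF/5 alone, so that it could only be tested if it differed. The median of the 13 was 1.41 against -0.06 over all genes.

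With TGFβ in SNU-449, 0 of 12 testable YAP/TEAD targets were called by limma, where 2.33% of all genes were. Of the 12, 10 had an unadjusted and 7 an adjusted p below 0.05, and 10.5% of all genes reached the latter. Their median was -0.31 against 0.02 over all genes. Of 13 tested in PLC/PRF/5, 1 was called, FJX1, which fell by 1.13 with TGFβ (adjusted p = 5.87e-05). When galunisertib was added to TGFβ in PLC/PRF/5, FJX1 (1.38), NT5E (1.15) and GADD45A (1.02) rose, as CCN2 did, with a list median of -0.14 against 0.06. In SNU-449, DLC1 fell by 1.20 in that comparison (adjusted p = 0.000985), and the list median was 0.40 against 0.01. Between the lines, the TGFβ effect differed for AMOTL2 (-1.06) and NT5E (1.11) and the galunisertib effect for ANKRD1 (-1.01) and F3 (-1.05).

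**Figure D4:**
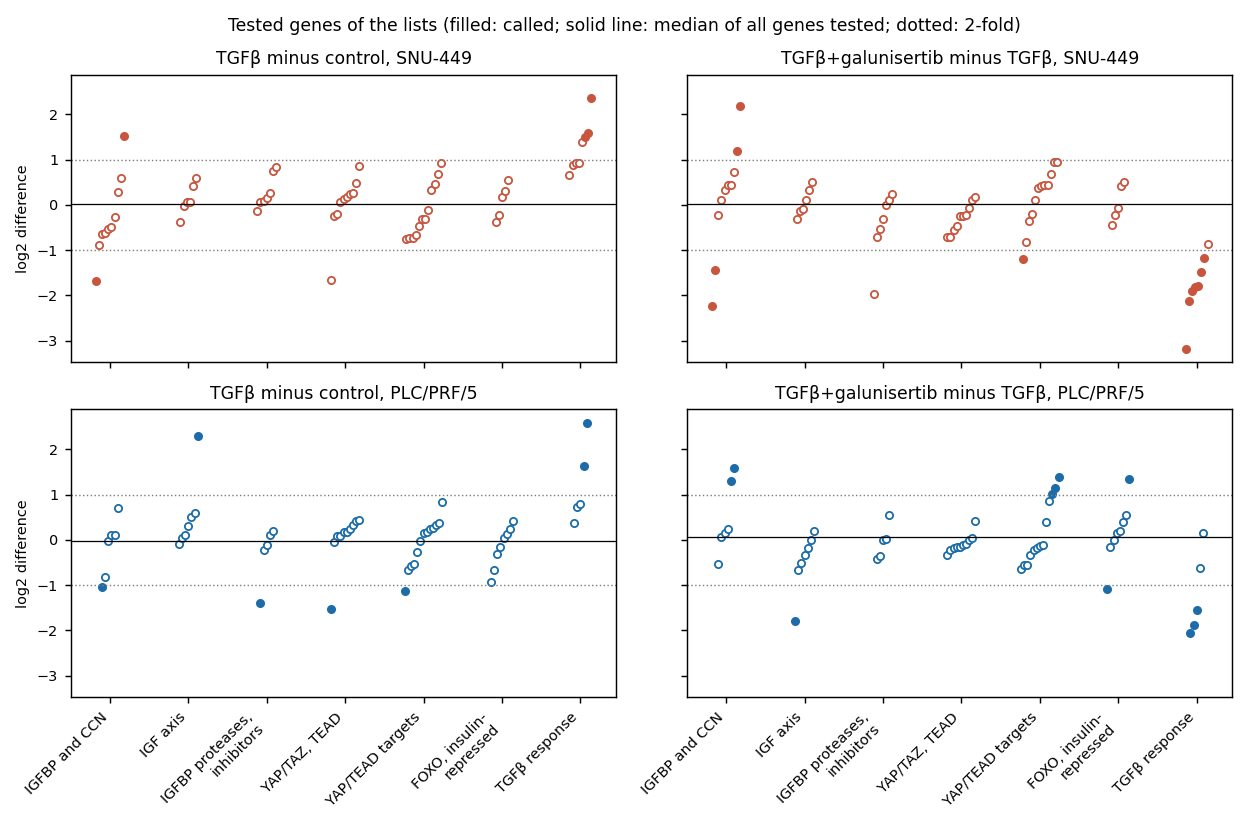
Log2 difference (y axis) of every tested gene in the IGFBP and CCN set and in the lists set beside it (x axis) for TGFβ minus control (left) and both agents minus TGFβ (right) in SNU-449 (top, red) and PLC/PRF/5 (bottom, blue); filled circles are called, the solid line is the median of all genes tested and dotted lines mark 2-fold, and genes below background in 1 group are drawn at their measured value. The TGFβ response genes lie above 0 on the left and mostly below it on the right in both lines, whereas the IGFBP and CCN genes have called members on both sides of 0 in SNU-449.

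IGFBP1 belongs with the genes that insulin represses and FOXO factors induce. Of 9 other such genes, 8 could be tested between the untreated lines and 4 were called lower in SNU-449, as IGFBP1 was. These were the gluconeogenic genes G6PC1 (at least 1353-fold) and PCK1 (at least 31.6-fold), PDK4 (-1.34) and SESN1 (-2.42). G6PC1 and PCK1 passed the filter through PLC/PRF/5 alone, so that they could only be tested if they differed. Over all genes, 34.3% were called in this comparison. Within SNU-449, none of the 5 testable genes was called with TGFβ by limma, where 2.33% of all genes were (1 of the 5 had an unadjusted and 0 an adjusted p below 0.05). The median was 0.17 against 0.02 over all genes. When galunisertib was added to TGFβ in PLC/PRF/5, TXNIP rose by 1.34 and G6PC1 fell by 1.10 (8 tested).

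Known TGFβ response genes gave a reference for the size of these effects. With TGFβ, 3 of 8 rose in SNU-449 (median 1.16) and 2 of 5 testable genes in PLC/PRF/5 (median 0.80). With galunisertib alone, 6 of 8 fell in SNU-449 (median -2.07) and none of 5 was called by limma in PLC/PRF/5 (median 0.09; 3 at an unadjusted p below 0.05). When galunisertib was added to TGFβ, 7 of 8 fell in SNU-449 and 3 of 5 in PLC/PRF/5. CCN2 and IGFBP3 had the sign of this list in all 3 of these comparisons in SNU-449 and the opposite sign in PLC/PRF/5 with TGFβ and with galunisertib added to it. Within a line these comparisons share control or TGFβ arrays, so their signs are not independent of each other. When TGFβ was added to galunisertib, 5 of 8 genes of the list rose in SNU-449 (median 1.39). In PLC/PRF/5 none of 5 was called by limma in that comparison (median 0.02, with 1 at an unadjusted p below 0.05).

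For each gene called with a treatment, the genes of most similar profile were sought as the highest Pearson correlations over the 12 arrays of the line, among genes well above background on all 12 (13979 in SNU-449, 14857 in PLC/PRF/5); the arrays share groups and slides, so these are descriptions. In SNU-449, CCN2 was nearest to ANKLE2 (0.988), CGB3 (0.984) and TPM1 (0.984), IGFBP3 to LOC729683 (0.983), CYTH1 (0.978) and CSRNP1 (0.977), IGFBP1 to PTX3 (0.982), IL6R (0.978) and SAMD10 (0.976), and IGFBP4 to VSIR (0.995), PHLDA1 (0.992) and MIR3681HG (0.990). In PLC/PRF/5, CCN2 was nearest to EREG (0.983), FOS (0.982) and HEATR1 (0.980), and IGFBP3 to CRH (0.991), LOC100294145 (0.990) and ABCC2 (0.989). No gene stood among the 3 nearest to CCN2 or to IGFBP3 in both lines.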

How the data were processed

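Total RNA of 24 cultures (2 lines, 4 conditions, 3 replicates each) was labelled with Cy3 and hybridised to one-colour Agilent SurePrint G3 arrays. The deposited scanner files hold background-subtracted intensity per spot, made by the authors with Feature Extraction 10.7.3.1 (per the submitters' processing notes); the deposited value table holds log2 values centred on each probe's median (column medians -0.0568 to 0.057), whose differences between arrays follow those of the intensities with a slope of 1.0001 over 19267 probes, and it served as an alternative. Control and outlier spots (111 to 216 per array) were left out, no spot was saturated, spots of a probe were averaged, intensities were divided by the array's 75th percentile, floored at 5.701% of it (the median over arrays of the faintest signal well above background) and log2-transformed. Accessions were named through the RefSeq table (31104 probes) or as LNCipedia entries (10719); 16378 probes stayed unnamed. The brightest probe stood for a gene, and a gene was tested if some group of the fit had it well above background on all arrays.

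Group means were fitted with limma 3.58.1 (R 4.3.3 and the data.table package, version 1.17.8) on the 12 arrays of a line, or on all 24 between lines, without a block; the methods name a 2-sample t-test with a random variance model, and limma, which also shares the spread between genes, was used instead. Genes were called at more than 2-fold and an unadjusted P below 0.001. The steps were tested on simulated data. An "at least" fold sets the mean of the bright group against the higher of the dim group's own signal and the faintest signal well above background on each of its arrays. No counting error applies to arrays, and 3 arrays per group limit the precision. Replicate numbers coincide with the 3 slides of 8 arrays. Same-numbered arrays deviated together, with every correlation over 0.1, in the SNU-449 arrays with TGFβ or as control (0.127 to 0.224), in those with TGFβ or both agents (0.100 to 0.267) and in the PLC/PRF/5 arrays with TGFβ or as control (0.171 to 0.305), and not elsewhere. The 10 genes, the gene lists and the tests were chosen with earlier results of these data known. Text was written about all 10 genes, the called genes of the lists, TGFβ target genes chosen as a treatment check (1 of them is not reported here), and the 3 nearest profiles of each gene called with a treatment. The alternatives were normexp on the median spot signal, other scalings, floors, filters and probe rules, the authors' values, a plain t-test, a replicate block, a fit over all arrays and leaving out each replicate. The t-test was a 2-sample test with pooled variance and without the random variance model that the methods name.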

Additional observations from a re-analysis of the deposited data

Results flagged for a closer look

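For 5 values, the treatment effect differed between the lines by the interaction test in limma. CCN2 differed by 2.34 with TGFβ and by -1.60 with galunisertib (SNU-449 minus PLC/PRF/5), IGFBP3 by 1.64 and -1.47, and IGFBP1 by -1.66 with TGFβ. For 4 values, the TGFβ effect differed with and without galunisertib within a line: SNU-449 gave -1.04 for CCN2 and 1.04 for IGFBP5, and PLC/PRF/5 gave 1.18 for CCN2 and 1.03 for IGFBP3. The IGFBP5 value rests on signals close to the floor.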

How the results depend on the processing

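Over all alternatives, 2394 of 2458 values of the 10 genes kept their side of the threshold. Of the rest, 53 kept the direction and lost the call, 11 gained one and 0 called values reversed. Among the 2394, 66 values called in neither setting changed sign. The calls of CCN2 and IGFBP3 for galunisertib alone in SNU-449, for galunisertib added to TGFβ in both lines and for the 2 differences between lines held in every alternative. The basal count went from 6 to 2 when all arrays had to be well above background, which removes IGFBP4, IGFBP5, IGFBP6 and CCN3; it was 4 under normexp and 5 with a floor at 200%. With TGFβ in SNU-449 it was 1 instead of 2 under normexp and the t-test (IGFBP1 at -0.78 under normexp), and with galunisertib added 2 instead of 4 under the t-test and 3 under normexp (IGFBP4 at 0.91). Between the lines, IGFBP1 lost its TGFβ call under normexp (-0.82), and with galunisertib alone in SNU-449 it gained one in the fit over all arrays (1.15) and without galunisertib replicate 3 (1.43). With TGFβ in PLC/PRF/5 it was 0 instead of 1 under normexp, no scaling and quantile normalisation (IGFBP3 at -0.84, -0.78 and -0.99) and 0 to 1 when a replicate was left out. For the effect of galunisertib on the TGFβ response, the count of 2 in SNU-449 became 1 under normexp, no scaling, the percentile over probes well above background, the authors' values, no filter, a floor at 200% and the replicate block, 0 under the array median and quantile normalisation, and 0 to 2 with a replicate left out. In PLC/PRF/5 the count of 2 became 1 under normexp, that percentile, quantile normalisation, no filter and the replicate block, 0 with no scaling, and 1 to 2 with a replicate left out. The replicate block left IGFBP5 at 1.04 (adjusted p = 0.0732) in SNU-449 and CCN2 at 1.18 in PLC/PRF/5, both uncalled, and changed no other call. IGFBP2 was called between the untreated lines under the array median (1.33), no scaling (1.07), quantile normalisation (1.03) and the authors' values (1.02). The cause of these shifts was not tested. Over all genes, the number called was 0.124 to 0.79 times the main number under the t-test and 0.263 to 1.41 times under normexp; the median of all genes shifted by -0.22 to 0.34 under the array median and by -0.18 to 0.25 with no scaling, and the share of higher calls by up to -28 and 27.4 percentage points under normexp and the array median. The t-test was not run for interactions and differences between lines. Signal over background limits what can be said of IGFBP4, IGFBP5, IGFBP6 and CCN3 in PLC/PRF/5.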
